A study of Homo sapiens with 6 samples.

Results

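The longest domains of H3K27me3, trimethylation of lysine 27 of histone H3, that 3 lymphoma cell lines have in common were taken as the stretches of autosomal DNA lying at once within an enriched interval, called an island, of at least 100 kb in each line. Of the 21439 stretches covered by islands of any length in all 3 lines, 430 met this rule, which is 2.01%. They covered 52.5 Mb, which was 12.3% of the 425 Mb shared by the 3 lines and 1.82% of the autosomal length of 2879 Mb. The members were chosen by the length of the islands, a measured value. That length, and the H3K27me3 reads from which islands are called, are therefore given below as a description and support nothing.

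Pfeiffer, WSU-DLCL2 and KARPAS-422 are established human lines of diffuse large B cell lymphoma, a cancer of mature B cells. The labels give mutant EZH2 for all 3 and average gIC50 values of 28, 134 and 232 nM in this order without naming the compound. The lines are named in this order throughout. Chromatin of each line was immunoprecipitated with an antibody against H3K27me3 and sequenced, with 1 such library and 1 library of input DNA per line. A line stands here for a single culture, no line with wild-type EZH2 was used here, and differences between lines have no replicate error and were not tested. The island lists hold no expression values, so the cell type of the lines was not checked against marker genes.

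EZH2 is the catalytic subunit of Polycomb repressive complex 2, which places methyl groups on lysine 27 of histone H3. The fully methylated form marks genes kept silent, among them many regulators of development. The complex also binds the mark through its subunit EED, which stimulates further methylation of neighbouring nucleosomes, and the mark can extend over broad domains in this way. Mutations of EZH2 found in B cell lymphomas change the catalytic domain so that dimethylated lysine is converted to the trimethylated form more readily.

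Autosomal islands held 17024803, 17188115 and 16039824 H3K27me3 reads in the 3 lines, and 8800268, 8224578 and 5694645 input reads. Because long islands hold many reads, counting error was small here. The islands around the stretches had 1854 to 30074 H3K27me3 reads in Pfeiffer. Those of WSU-DLCL2 had 2038 to 30123, and those of KARPAS-422 1953 to 29727. Input reads per island were at least 960, 991 and 589. The exact Poisson interval of 95% around a read count had a median width of 2.70%, 2.98% and 3.10% to either side, and at most 4.58%, 4.37% and 4.46%. The intervals allow for counting alone. Reads amplified from 1 molecule are not independent, and no molecular identifiers are described.

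Most of the long islands of any line lay outside the common stretches. Pfeiffer had 1240 islands of at least 100 kb, 5.83% of its list, and 379 of them (30.6%) held a stretch. In WSU-DLCL2 401 of 1101 such islands (36.4%) held one, from a list of which 4.77% were that long. KARPAS-422 had the fewest, 876 or 3.18% of its list, and the largest share with a stretch, 396 islands or 45.2%. The stretches made up 24.1%, 30.5% and 36.1% of the bases in long islands of the 3 lines.

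The remaining long islands were mostly covered by islands of the other lines too. There were 861, 700 and 480 long islands without a stretch. A long island of Pfeiffer without a stretch had a median of 85.7% of its bases covered by islands of WSU-DLCL2 and 84.5% by islands of KARPAS-422, where it met a median of 2 and 3 separate islands. Those of WSU-DLCL2 were covered to 91.3% by Pfeiffer and 85.5% by KARPAS-422, and those of KARPAS-422 to 87.9% by Pfeiffer and 84.4% by WSU-DLCL2. Where they met islands of another line, the longest of these had a median length of 63.75 to 89.25 kb depending on the pair of lines. It was at least 100 kb long for 17.3% to 37.7% of these islands, so a part of them met a long island of another line. A complete lack of the mark's islands in another line was uncommon, at 2.71% to 7% of these islands depending on the pair of lines.

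The stretches were far longer than other shared DNA, as the rule requires. Their length ran from 0.75 to 354.75 kb with a median of 117 kb and quartiles of 100.5 and 146.25 kb, whereas all 21439 shared stretches had a median of 12.75 kb. The 326 stretches of at least 100 kb were the bulk, 30 reached 200 kb and 3 reached 300 kb. At the lower end 392 reached 50 kb, and 2 were under 10 kb because the long islands of the lines met only at their edges.

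Islands of 100.5 kb, the first length on the grid of 750 bases that passes the limit, numbered 26, 22 and 10 in the 3 lists. Their median H3K27me3 reads per kb were 1.27, 1.16 and 1.34 times the median over all islands of the list. Islands of 99.75 kb, just too short, numbered 17, 9 and 9 and had 1.14, 1.28 and 1.30 times that median. A limit set 1 grid step lower gave 435 stretches, and 1 step higher gave 415.

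The longest stretch lay on chromosome 10 from 71386501 to 71741250 (hg19, the build used for all positions) and spanned 354.75 kb. It was the whole of a WSU-DLCL2 island and lay in islands of 474 kb in Pfeiffer and 371.25 kb in KARPAS-422. All 3 islands ended within 4.5 kb of each other on the right, and the Pfeiffer island began farther left. H3K27me3 reads per kb, divided by the median over all islands of the same list and called relative reads below, were 1.37 in Pfeiffer (95% interval 1.35 to 1.40). The other lines had 1.27 (1.249 to 1.30) and 1.32 (1.30 to 1.35). The level was thus nearly equal in the 3 lines, above the median island in each.

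The other 2 stretches over 300 kb were each 308.25 kb long and differed in this respect. The one on chromosome 10 from 80648251 to 80956500 had relative reads of 1.49, 1.83 and 1.64, the highest in WSU-DLCL2. The one on chromosome 17 from 71331001 to 71639250 had 2.15 in Pfeiffer and 1.29 in both WSU-DLCL2 and KARPAS-422. Input reads per kb, scaled in the same way and called relative input, were 1.59, 0.969 and 0.885 there, so Pfeiffer also stood above the others in its input. The authors' fold over input, which sets each line's reads against its own input, was 2.13, 2.05 and 2.36 and did not single out Pfeiffer.

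**Figure D1:**
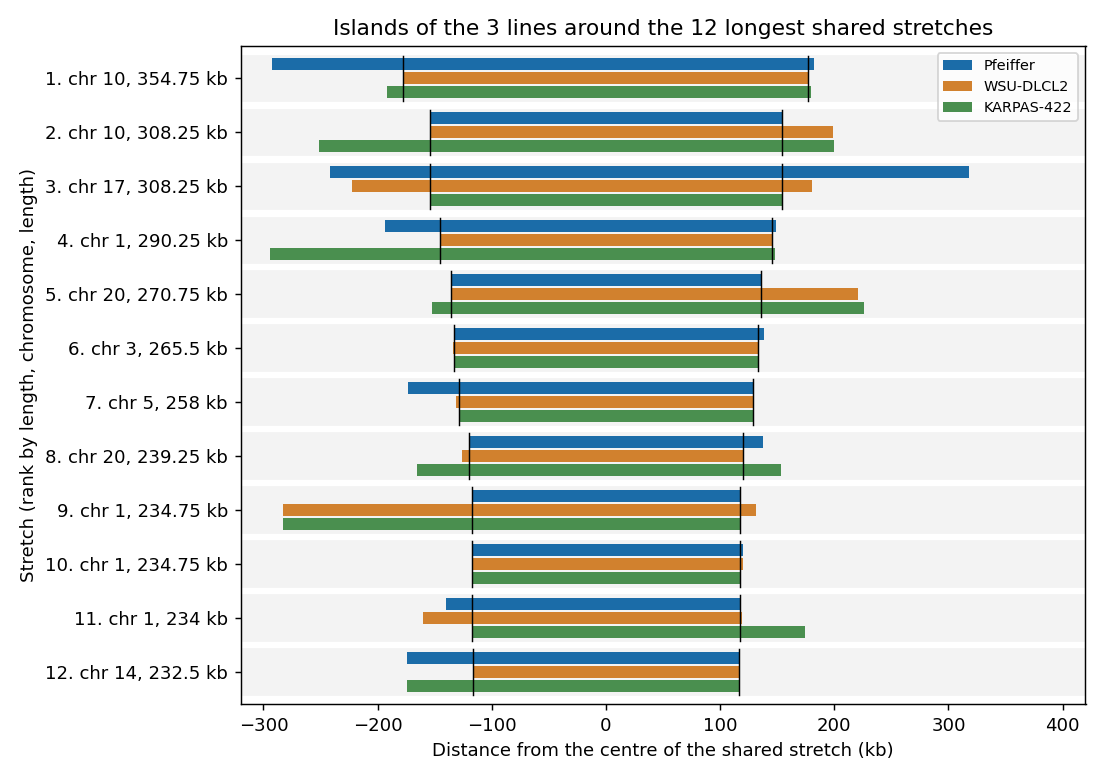
Islands of Pfeiffer, WSU-DLCL2 and KARPAS-422 around the 12 longest stretches, drawn as bars against the distance in kb from the centre of each stretch, with vertical lines at the limits of the stretch. The stretches of 265.5 kb on chromosome 3 and from 110956501 to 111191250 on chromosome 1 have islands with nearly the same limits at both ends in the 3 lines. The stretch of 258 kb on chromosome 5 and several others have nearly the same right end only. At most of the 12 an island of 1 or 2 lines reaches far past the vertical lines.

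Limits were close together at some of the 12 longest stretches and far apart at others. On chromosome 3 from 13494751 to 13760250 the islands measured 271.5, 266.25 and 266.25 kb around a stretch of 265.5 kb, with relative reads of 1.57, 1.38 and 1.39. On chromosome 5 from 149478751 to 149736750 the islands of all 3 lines ended on the same base, and relative reads were 2.07, 1.55 and 1.38 at relative inputs of 1.69, 1.18 and 0.989. On chromosome 1 from 110956501 to 111191250 they began on the same base and measured 237.75, 237.75 and 234.75 kb. By contrast, on chromosome 1 from 23028751 to 23263500 the whole Pfeiffer island of 234.75 kb lay within islands of 414.75 and 400.5 kb.

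The remaining 5 of the 12 were between 232.5 and 290.25 kb long. On chromosome 1 from 20529751 to 20820000 the stretch was a whole WSU-DLCL2 island, with relative reads of 1.40, 1.53 and 1.32. On chromosome 20 from 48810001 to 49080750 it was a whole Pfeiffer island, at 1.49, 1.30 and 1.46. KARPAS-422 was highest at 2 of the 5: at 1.54 against 1.246 and 1.05 on chromosome 20 from 57823501 to 58062750, and at 1.66 against 1.28 and 1.32 on chromosome 14 from 65127001 to 65359500. Its relative input was 1.28 and 1.46 at these places. On chromosome 1 from 17845501 to 18079500 Pfeiffer was highest, at 1.45 against 1.06 and 1.251, with relative inputs of 1.08, 0.958 and 0.839.

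Pfeiffer islands reached beyond the stretches most often. The median island around a stretch was 192 kb long in Pfeiffer, against 158.25 and 150.75 kb in the other lines. A stretch filled a median of 64.2% of its Pfeiffer island, 82.2% of its WSU-DLCL2 island and 81.9% of its KARPAS-422 island. Pfeiffer set the left limit of 131 stretches, WSU-DLCL2 of 189 and KARPAS-422 of 197, ties included. On the right these numbers were 131, 192 and 207, so the narrower islands of WSU-DLCL2 and KARPAS-422 most often fixed where a stretch ended. Many long islands of Pfeiffer lay on chromosomes where its input was raised, as given below. The part of input in island length was not tested.

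Some stretches were an undivided island of a line, and many were small parts of one. The stretch was the line's whole island in 36, 80 and 85 cases. It filled at least 90% of the islands of all 3 lines in 53 cases, and under 25% of the island of at least 1 line in 70. The largest excess was in KARPAS-422 on chromosome 20, where the stretch from 60328501 to 60483000 lay in an island of 905.25 kb, against 253.5 kb in Pfeiffer and 188.25 kb in WSU-DLCL2. In Pfeiffer it was on chromosome 17, where the stretch from 31874251 to 31944000 lay in an island of 640.5 kb, against 142.5 and 147.75 kb.

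The 3 lines ended their long islands at the same place in a minority of cases. Of the 860 ends of stretches, 43 (5%) were the end of an island of all 3 lines on the same base of the grid, 162 (18.8%) had the 3 island ends within 3 kb and 445 (51.7%) within 50 kb. Among the ends of all shared stretches these shares were 4.01%, 19.1% and 74.3%. Ends on the same base or within 3 kb were thus about as frequent as in all shared DNA, whereas ends within 50 kb were less frequent. A long island can run on farther than a short one, so the spread of ends is bound to the length that chose the stretches. The median spread of the 3 ends was 46.1 kb, against 19.5 kb for all shared stretches, and the largest was 716.25 kb.

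Only 1 stretch had the same limits in every line. It lay on chromosome 8 from 142644751 to 142745250, an island of 100.5 kb in each list. Its level was not the same, with relative reads of 2.37 in Pfeiffer, against 1.17 and 1.37 in the other lines, and relative inputs of 1.70, 1.08 and 0.843. A further stretch that shared one limit in all lines lay on chromosome 12 from 57506251 to 57618750, where the islands began on the same base and had relative reads of 1.78, 2.06 and 1.67.

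Nearly all stretches lay in islands with more H3K27me3 reads per kb than the median island. Read counts are known only for whole islands, so a stretch carries the values of the islands around it, and 43, 27 and 30 islands of the lines held more than 1 stretch. In Pfeiffer relative reads ran from 0.939 to 2.70 with a median of 1.40. WSU-DLCL2 had a range of 0.904 to 2.89 around a median of 1.32, and KARPAS-422 one of 0.948 to 2.09 around 1.31. The medians over all shared stretches were 1.09, 1.06 and 1.06. Values over 1 were found for 426, 417 and 425 stretches in the 3 lines, where the share among all shared stretches was 65.6%, 62.2% and 62.7%. In all 3 lines at once 411 stretches (95.6%) exceeded 1, against 37.9% of all shared stretches. Reads of these same libraries defined the islands, so nothing is read from this excess.

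**Figure D2:**
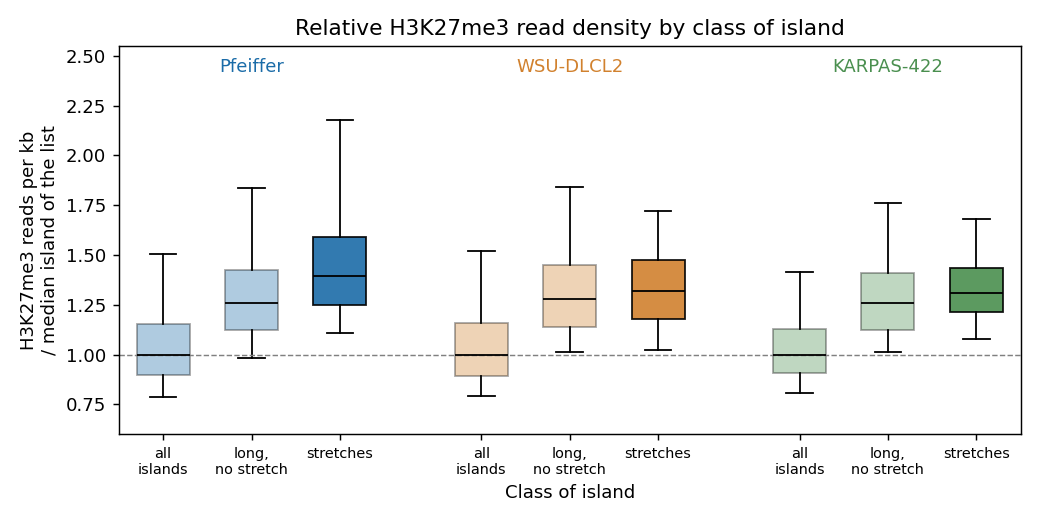
Relative reads, the H3K27me3 reads per kb of an island divided by the median of its list, in each line for all islands, for islands of at least 100 kb without a stretch, and for the islands around the 430 stretches. Boxes show quartiles and the median, and whiskers the 5th and 95th percentiles. The medians of long islands without a stretch are 1.26, 1.28 and 1.26 and those of the stretches 1.40, 1.32 and 1.31, above the dashed line at 1.

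Median relative reads were higher in the class of the longest stretches, and the long islands that held a stretch had higher medians than those that did not. In the 104 stretches under 100 kb median relative reads were 1.29, 1.26 and 1.253, in the 296 of 100 to 200 kb they were 1.42, 1.32 and 1.32, and in the 30 of at least 200 kb they were 1.52, 1.38 and 1.44. Over single stretches the relation with length was weak, with Spearman's rho of 0.27, 0.16 and 0.22 (n = 430), and the longest stretch of all was below the median of the 430 in Pfeiffer and WSU-DLCL2. Long islands with a stretch had medians of 1.39, 1.32 and 1.31, against 1.26, 1.28 and 1.26 in those without. The authors' fold over input differed in the same direction, with medians of 1.94, 1.83 and 2.11 against 1.70, 1.72 and 1.77. Fold is built from the same H3K27me3 reads and is no separate support. Relative input in the same 2 classes was 1.11, 1.09 and 0.996 against 1.11, 1.11 and 1.13, so in KARPAS-422 the islands with a stretch also had less input. They were longer as well, with medians of 177.75, 153 and 147 kb against 132, 129.75 and 136.875 kb.

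Fold over input ranked these islands high within their lists, with wide variation. The median fold at the stretches was 1.94, 1.83 and 2.12, compared with 1.65, 1.60 and 1.70 at all shared stretches. The median stretch stood at the 86.7th percentile of fold in the Pfeiffer list, the 79.8th in that of WSU-DLCL2 and the 85.4th in that of KARPAS-422. The lowest stood at percentiles of 13.9, 2.92 and 3.97, so a domain of this length could have a fold among the lowest of its list.

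Input differed among the stretches, and the highest H3K27me3 read densities came with raised input. Relative input reached 1.3 at 90, 20 and 54 stretches in the 3 lines, where the share among all shared stretches was 14.0%, 7.46% and 8.54%. Median relative reads at these stretches were 1.97, 1.81 and 1.62. At the 281, 306 and 285 stretches with an input of 0.85 to 1.15 they were 1.30, 1.254 and 1.26. Median fold, which takes account of input, was 1.94, 1.76 and 1.78 at raised input and 1.94, 1.81 and 2.12 near the median, so it was no higher where the input was raised. Input reads follow the number of DNA copies among other influences, which cannot be told apart here.

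Across the 430 stretches Spearman's rho of relative reads and relative input was 0.76, 0.52 and 0.38 in the lines. Each point shares its island, and hence its length, between both measures. These are descriptions over stretches of 1 pair of libraries per line, not over replicates.

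**Figure D3:**
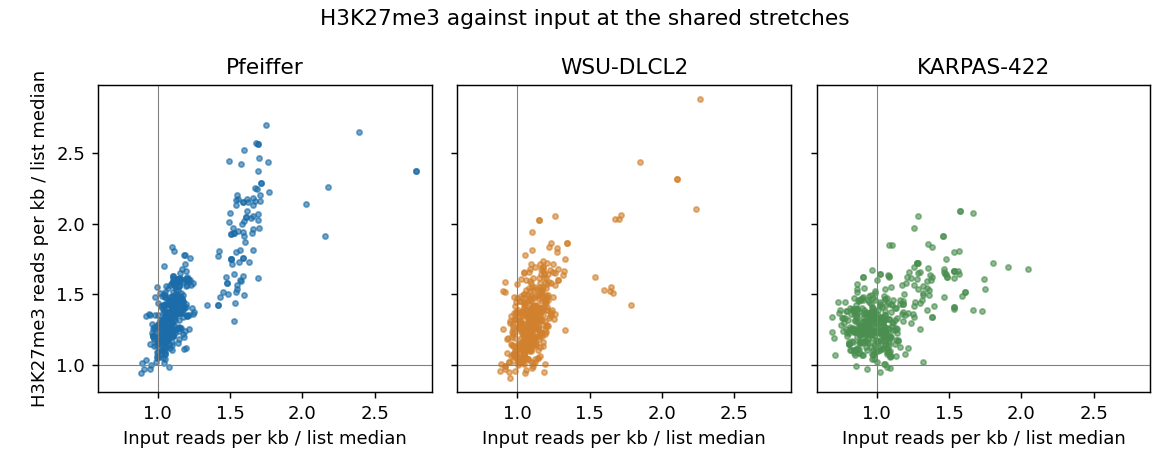
Relative reads (H3K27me3) against relative input for the islands around the 430 stretches, in 1 panel per line, both as multiples of the list's median. The highest point of each panel, at 2.70, 2.89 and 2.09, lies at a raised input of 1.75, 2.27 and 1.57, with rho of 0.76, 0.52 and 0.38 in the 3 panels.

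A difference between lines of at least 1.5-fold in relative reads was found for 75 of the 430 stretches (17.4%). The share among all shared stretches was 16.1%, close to this, so the long domains did not stand out in this count. Islands of any length were mostly much shorter, with list medians of 20.25, 18.75 and 15.75 kb. They hold fewer reads, so counting error is larger among all shared stretches. Its part in the contrasts here and below was not tested. A difference of at least 25% was found for 189 stretches (48.1% of all shared stretches had one), and of at least 2-fold for 3 (2.34% of all shared stretches). At the limit of 1.5-fold, Pfeiffer exceeded WSU-DLCL2 at 40 stretches and KARPAS-422 at 51, where 5.07% and 5.68% of all shared stretches did. WSU-DLCL2 exceeded Pfeiffer at 7 and KARPAS-422 at 6 (3.15% and 3.71% of all shared stretches), and KARPAS-422 exceeded Pfeiffer at 2 and WSU-DLCL2 at 9 (2.61% and 2.90%). The direction of the differences was therefore uneven, with most of them towards Pfeiffer.

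Each of the 75 stretches had raised input in the line with the most reads. Pfeiffer led at 58, WSU-DLCL2 at 9 and KARPAS-422 at 8, and the relative input of the leading line was at least 1.3 at each of these 75. Among the 3461 shared stretches of any length past the same limit, this was so for 2454 (70.9%). The Pfeiffer stretches lay mainly on chromosome 17 (24), chromosomes 5 and 16 (13 each) and chromosome 8 (5). Those of WSU-DLCL2 lay on chromosomes 3 (4), 7 (4) and 8 (1), and those of KARPAS-422 all on chromosome 14.

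Where input was near the median in every line, differences between lines were smaller. At 136 stretches (31.6%) relative input lay between 0.85 and 1.15 in all 3 lines. No difference of 1.5-fold was found among them, where 2.70% of the 7522 shared stretches of any length with such input differed that far. Counting error is larger in the shorter islands of the latter, so this contrast does not show that long domains were more alike. Their median relative reads were 1.30, 1.23 and 1.24, and the highest line exceeded the lowest by a median factor of 1.15, compared with 1.22 over the 430 stretches. Spearman's rho between lines over these 136 stretches was 0.62 for Pfeiffer with WSU-DLCL2, 0.67 for Pfeiffer with KARPAS-422, and 0.40 for the remaining pair. Over all 430 it was 0.40, 0.21 and 0.38.

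When relative reads were divided by relative input, 14 stretches had a difference of 1.5-fold, where 8.24% of all shared stretches had one. Counting error of both reads and input is larger in the shorter islands behind the latter share. The 14 were counted anew over every stretch, so they need not be among those that differed by 1.5-fold in relative reads. KARPAS-422 was highest at 13 of the 14 and WSU-DLCL2 lowest at 12. The measure had medians of 1.24, 1.19 and 1.30 at the stretches, against 1.05, 1.04 and 1.04 over all shared stretches. KARPAS-422 had the fewest input reads, and its part in this order was not tested.

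The highest levels in Pfeiffer came from stretches of raised input. On chromosome 16 from 85448251 to 85644000 relative reads were 2.70 (95% interval 2.65 to 2.76), 1.57 and 1.38, at inputs of 1.75, 1.00 and 0.787. The fold over input was 2.43, 2.41 and 2.86, at percentiles of 98.3, 97.4 and 97.5 of the fold in each list. By rank within its list the fold was thus high in all 3 lines, and the lines were close. On chromosome 17 from 77280751 to 77495250 relative reads were 2.58, 1.36 and 1.45, with an input of 1.68 in Pfeiffer. The largest lead of Pfeiffer over the geometric mean of the other lines, 2.00-fold, was on chromosome 16 from 85047751 to 85148250, at 2.57, 1.31 and 1.254.

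In WSU-DLCL2 and KARPAS-422 the leading stretches also had raised input. WSU-DLCL2 was highest on chromosome 3 from 194640751 to 194787750, at 2.89 against 1.23 in Pfeiffer and 1.80 in KARPAS-422, with inputs of 1.06, 2.27 and 1.54 in the order of the lines. On chromosome 7 from 30697501 to 30816000 it had 2.44, against 1.34 and 1.38, at an input of 1.85. In KARPAS-422 the highest value belonged to an island of 216 kb on chromosome 14 that held the stretches from 95780251 to 95815500 and from 95821501 to 95993250, at 2.09 with an input of 1.57. Pfeiffer had 1.37 at both of these stretches, and WSU-DLCL2, whose islands were separate, had 1.15 and 1.28.

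Some stretches were dense in all 3 lines. The highest value in the line where it was lowest belonged to chromosome 10 from 46963501 to 47064000, with relative reads of 2.26, 2.11 and 2.07. Its relative input was 2.18, 2.24 and 1.67 as well. Only 3 stretches had an input of at least 1.3 in every line, this one, one on chromosome 6 from 277501 to 391500 (inputs 2.39, 1.54 and 1.46) and one on chromosome 16 from 70983751 to 71202750 (2.15, 1.79 and 2.04). At the last of these the fold over input was 1.40, 1.23 and 1.34, among the lower values of the stretches despite relative reads of 1.91, 1.43 and 1.68.

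A stretch on chromosome 20 from 61305751 to 61425000 was dense without raised input. Its relative reads were 1.83 (95% interval 1.79 to 1.88), 1.68 (1.63 to 1.73) and 1.85 (1.80 to 1.90), its relative inputs 1.10, 1.09 and 1.11, and its folds 2.62, 2.37 and 2.72. It lay 1.49 Mb from the chromosome end. The stretch on chromosome 22 from 42697501 to 42789000 was similar, at 1.67, 2.02 and 1.62 with inputs of 1.20, 1.15 and 0.908 and folds of 2.19, 2.70 and 2.91.

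The lowest levels were near the median island of the lists. On chromosome 16 from 10216501 to 10315500 relative reads were 1.12, 0.904 and 0.968, the lowest in WSU-DLCL2. Pfeiffer was lowest on chromosome 1 from 34457251 to 34527750, at 0.939 against 1.01 and 1.27, in an island of 100.5 kb. KARPAS-422 was lowest on chromosome 1 from 208401751 to 208424250, at 0.948 against 1.24 and 1.19. Each of these stretches exceeded 1 in at least 1 other line, and 0 of the 430 had relative reads of at most 1 in all 3 lines.

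**Figure D4:**
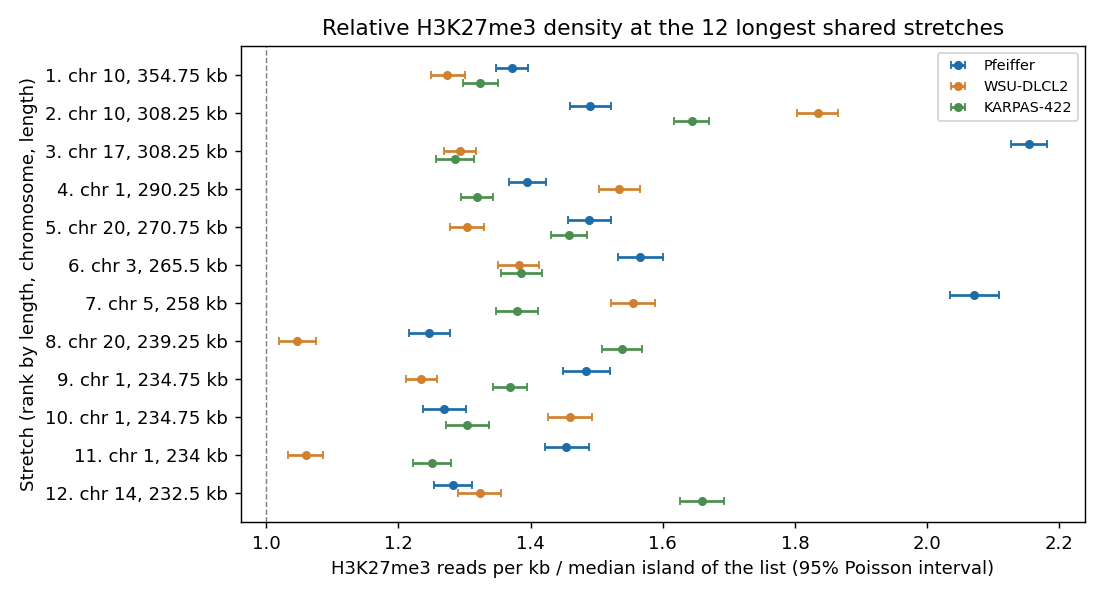
Relative reads with exact Poisson 95% intervals of the 12 longest stretches in each of the 3 lines, 1 library per line. Pfeiffer stands apart at the stretches on chromosome 17 (2.15) and chromosome 5 (2.07), and KARPAS-422 at those on chromosome 14 (1.66) and chromosome 20 (1.54).

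Many stretches lay near another stretch. The same distances are not given for all shared stretches, so whether this differs from other shared DNA was not tested. The nearest other stretch was a median of 292.5 kb away, within 100 kb for 146 stretches (34.0%) and within 1 Mb for 321 (74.7%). Stretches under 1 Mb apart were joined into 210 clusters, of which 109 held a single stretch and 51 held at least 3, with 221 stretches in these 51. Part of this closeness came from single islands cut in pieces. In 69 pairs of neighbours both stretches lay in 1 island of at least 1 line, namely 51, 29 and 34 pairs in the 3 lines, some of them counted in more than 1 line. The gap was present in a single line at 10, 18 and 17 pairs.

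Such a split is seen on chromosome 3, where the stretches from 193673251 to 193851750 and from 193854751 to 193955250 were parted by 3 kb. WSU-DLCL2 had a single island of 620.25 kb here and Pfeiffer 1 of 282 kb, while KARPAS-422 had islands of 430.5 and 187.5 kb. Relative reads were 2.32 in WSU-DLCL2, against 1.27 in Pfeiffer and 1.64 in both KARPAS-422 islands, with a relative input of 2.11 in WSU-DLCL2.

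The cluster with the most stretches lay on chromosome 1 from 17484751 to 19342500. Its 11 stretches covered 1217.25 kb, or 65.5%, of 1.86 Mb. Pfeiffer had an island of 612 kb across 3 of them and 1 of 386.25 kb across 4 others, where WSU-DLCL2 and KARPAS-422 were divided differently. Median relative reads of the cluster were 1.38, 1.16 and 1.26 and median relative inputs 1.08, 1.05 and 0.955, so its input was near the median in all lines.

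In the clusters named next on chromosomes 16, 14 and 20 the line with the most reads also had the highest input. In those on chromosomes 9 and 11 it did not, and there the inputs of Pfeiffer and WSU-DLCL2 were nearly the same. On chromosome 16 from 84222751 to 88633500 there were 9 stretches with median relative reads of 2.43, 1.35 and 1.24 and inputs of 1.66, 1.00 and 0.846. On chromosome 14 from 94168501 to 96411750 there were 8, with relative reads of 1.248, 1.14 and 1.83 and inputs of 1.10, 1.15 and 1.57. The 9 stretches on chromosome 9 from 135282751 to 139530000 had relative reads of 1.49, 1.32 and 1.34 at inputs of 1.04, 1.07 and 0.817, so the order of the lines in reads was not their order in input. On chromosome 20 from 46764001 to 50276250 the 7 stretches had 1.42, 1.30 and 1.497 at inputs of 1.10, 1.05 and 1.31. Other clusters also held 7 stretches. The one on chromosome 20 from 55527751 to 58062750 had 1.26, 1.17 and 1.69 at inputs of 1.05, 1.06 and 1.28. The one on chromosome 11 from 68953501 to 71142000 had 1.37, 1.24 and 1.27 at inputs of 1.04, 1.05 and 0.884.

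The stretches were spread unevenly over the chromosomes. Over all autosomes there were 14.9 per 100 Mb. Chromosome 20 had the most, 57.2 per 100 Mb or 36 stretches, followed by chromosome 17 with 44.4 (also 36), chromosome 22 with 29.3 (15) and chromosome 1 with 28.5 (71). Chromosomes 1, 17 and 20 together held 143 stretches, 33.3% of all. Fewest were found on chromosome 13, with 2.61 per 100 Mb (3 stretches), and chromosome 4, with 3.14 (6). Shared stretches of any length numbered 553 and 555 on these 2 chromosomes. The long stretches made up 4.64% and 9.58% of their shared bases, against 12.3% over all autosomes.

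Chromosome 19 stood apart from other chromosomes rich in genes. It had 24.6 protein-coding genes per Mb, the most of all autosomes, but only 4 stretches, or 6.77 per 100 Mb. Across the 22 autosomes Spearman's rho of stretches per 100 Mb and gene density was 0.51, and 0.69 without chromosome 19, a description over chromosomes that share the length as a divisor. Stretches made up 25.02% of the shared bases on chromosome 20 and 23.7% on chromosome 17, against 2.70% on chromosome 19. Shared islands were thus present on chromosome 19, in 844 shared stretches, but few of them were long.

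**Figure D5:**
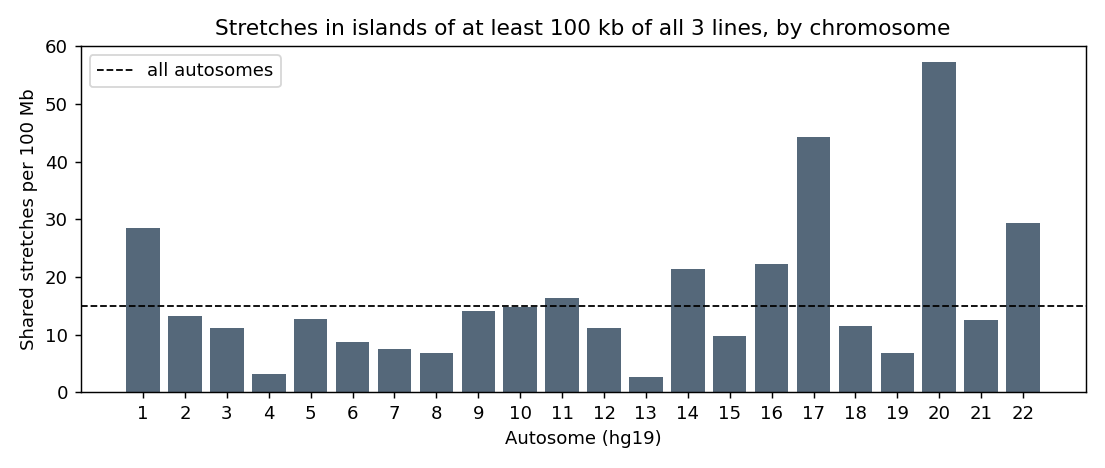
Stretches per 100 Mb on each of the 22 autosomes as bars, with the value over all autosomes, 14.9, as a dashed line. Chromosomes 20 and 17 stand highest at 57.2 and 44.4, and chromosomes 13 and 4 lowest at 2.61 and 3.14.

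Chromosomes with raised input at the stretches had raised relative reads in the same line. Median relative input in Pfeiffer was 1.59 on chromosome 5, 1.64 on chromosome 8, 1.58 on chromosome 16 and 1.53 on chromosome 17, with median relative reads of 1.82, 1.87, 1.95 and 1.99. In KARPAS-422 it was 1.49 on chromosome 14 and 1.28 on chromosome 20, with relative reads of 1.67 and 1.54. Median fold over input on these chromosomes was 1.83, 1.81, 2.00 and 2.00 in Pfeiffer, on both sides of its median of 1.94 over all stretches. In KARPAS-422 it was 1.88 on chromosome 14, the lowest of the 22 autosomes in this line, and 1.94 on chromosome 20, both below its median of 2.12.

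The share of stretches near chromosome ends was close to that of all shared stretches. The first and last listed base of a chromosome were taken as its ends, and these need not be its true ends. Of the 430 stretches 69 (16.0%) lay within 5 Mb of such an end, where 14.0% of all shared stretches did. Within 2 Mb the shares were 4.88% and 5.56%, and within 10 Mb 27.7% and 24.7%. Folds were higher near the ends, with medians of 2.10, 1.92 and 2.47 against 1.90, 1.82 and 2.07 elsewhere. The relative input of KARPAS-422 was lower there, 0.877 against 1.02, and its part in the higher fold was not tested.

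The surroundings of the stretches were rich in the mark in every line. Islands covered a median of 62.1%, 58.7% and 58.4% of the 500 kb on both sides of a stretch in the 3 lines. The share of all autosomal DNA covered by islands was 25.6%, 24.8% and 24.7%. The flanks include the rest of the long islands that hold the stretches, so part of this coverage follows from how the stretches were chosen. Flanks of all shared stretches are not given, so whether the long domains differ from other shared DNA in this was not tested.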

How the data were processed

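H3K27me3 ChIP-seq islands of 3 cell lines were analysed, with 1 immunoprecipitated and 1 input library per line. Alignment was by Bowtie to hg19 and island calling by SICER, per the submitters' processing notes. Of tool versions, read filters and duplicate handling nothing is given in the sources used here. According to the deposited names, SICER ran with windows of 750 bases and gaps of 2250 bases, and islands were listed at a false discovery rate of 0.001. For every island the authors deposited a p-value, a q-value, a fold (ratio) over input, and the whole counts of H3K27me3 and input reads. Reads outside islands were not used here, so the depth of the whole libraries is unknown.

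Island length was end minus start plus 1, and positions were converted to count from 1. Autosomal islands of at least 100 kb of the 3 lines were intersected. Reads per kb of the containing islands were divided by the median of the list. Flanks were 500 kb to each side, and the ends of a chromosome were taken as its first and last listed base. Poisson intervals are exact. With 1 library per line no test was run. Calculations ran in Python 3.11.15 with pandas 2.3.3, numpy 2.4.6 and scipy 1.17.1, and the intersection was checked on simulated data.

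The members, limits and lists were chosen with earlier results of these data known. The stretches named came from the 12 longest, the highest and lowest of each line, the highest in their lowest line, the highest and lowest against the other lines, those with equal limits, those whose island reached farthest, and the 5 clusters with the most stretches. The text gives a part of them. The last of these clusters was tied with others of 7 stretches, which are given as well. The stretch on chromosome 16 from 70983751 to 71202750 falls outside this rule and was named after its values were seen. No hg19 genome or annotation was used here, so stretches are named by position, and genes and sequences within them were not analysed here. Gene density per chromosome came from RefSeq's table for GRCh38.p14, without its coordinates. Alternatives were other lengths, joined islands, stricter lists, lines left out, chromosome X included, and other scalings, folds, gaps and end distances.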

Additional observations from a re-analysis of the deposited data

Results flagged for a closer look

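Chromosome X was outside the rule, and 1 signal was seen there. KARPAS-422 had 4 islands of at least 100 kb on chromosome X, with folds over input from 1.79 to 2.87, among 883 islands on that chromosome. Pfeiffer and WSU-DLCL2 had 0 of that length among 60 and 114 islands on X, so no stretch common to the 3 lines was added. The difference between the lines was not tested.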

How the results depend on the processing

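Length and joining set the number of stretches. With a limit of 75 kb there were 892 stretches, covering 86.2 Mb with a median of 89.25 kb, and with 150 kb there were 127, covering 21.7 Mb with a median of 171 kb. Joining islands under 5 kb apart gave 1023 stretches, 151 Mb and a median of 129 kb. Leaving out KARPAS-422 gave 689 stretches and 94.4 Mb, and leaving out WSU-DLCL2 gave 80.1 Mb. The number was 430 with a false discovery rate of at most 1e-10. It was also 430 with chromosome X included and with islands of more than 3 times the median input removed. Neither of these last settings could change it. Pfeiffer and WSU-DLCL2 had 0 islands of at least 100 kb on X, and relative input at the stretches was at most 2.79, 2.27 and 2.04. Lists limited to folds of at least 1.5 gave 390. Median relative reads were closer to 1 under 2 other scalings: 1.19, 1.14 and 1.17 when divided by the reads per kb over all islands, and 1.07, 1.02 and 1.02 by the median of islands of at least 100 kb, whose length they share. Divided by relative input they were 1.24 in Pfeiffer, 1.19 in WSU-DLCL2 and, nearly as before, 1.30 in KARPAS-422, and 14 stretches differed by 1.5-fold (8.24% of all shared stretches). A difference of at least 25% was found for 189 and of 2-fold for 3, against 48.1% and 2.34% of all shared stretches. Within 2 Mb of an end lay 4.88% of the stretches, below the 5.56% of all shared stretches, and within 10 Mb 27.7%, above their 24.7%. Alternatives on genes and sequences were not run, as no hg19 annotation was used here. No paired analysis was possible because each line had 1 H3K27me3 library and no test was made. Read counts are known for whole islands only, so the level inside a stretch was not measured, and there are no replicates.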
